A study of Mus musculus with 2 samples.

Results

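The genes described here are the 47 mouse genes that encode the machinery which opens replication origins and copies DNA at the fork. They were chosen by name, complex by complex, and not by a measured value, and all 47 were found among the 43346 annotated genes of the tables. They fall into 14 sets: the origin recognition complex, the helicase loaders with their inhibitor, the Mcm2-7 helicase, its activators, GINS, the alpha, delta and epsilon polymerases, the sliding clamp, its loader, the enzymes that join Okazaki fragments, the single-strand binding protein, the enzymes of deoxynucleotide supply and chromatin assembly factor 1. Total RNA was sequenced from forebrains of B6NCrl mouse embryos at 10.5 days, as a single group with no treatment and no second stage. Replicate 1 was a pool of 69 embryos and replicate 2 a separate pool of 51 embryos, both of mixed sex and each read from 10 ng of RNA. The gene tables held 43021202 expected counts (estimated reads) for replicate 1 and 39215064 for replicate 2. An exact two-sided sign flip over a pair of libraries gives no p below 0.5, so none is given, and each value stands with the spread between the pools. All 8 markers of the neuroepithelium, among them Sox2, Pax6 and Nes, were at 1 TPM or more in both libraries, as were all 8 each of neurons, erythroid cells, mesenchyme and endothelium, so detection alone does not tell the labelled tissue from these. TPM is a length-corrected share of all transcripts in a library, scaled to the same total in each.

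DNA replication begins with licensing. In G1 the origin recognition complex marks an origin, and Cdc6 and Cdt1 load the ring of Mcm2 to Mcm7 onto it, while geminin blocks Cdt1 once S phase has started. Cdc45 and GINS then turn the loaded ring into an active helicase, primase and polymerase alpha lay down primers, and polymerases epsilon and delta extend them on a clamp of PCNA that replication factor C opens and closes. Many of these genes are known targets of the E2F transcription factors, and the forebrain at this stage is a neuroepithelium of dividing progenitors.

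Letters of the E2F consensus stood near the start of 15 of the 39 members that have a promoter window, a share of 38.5%. The windows run from 250 bases before to 50 bases after an annotated start and come from RefSeq on the build GRCm38.p6. The letters searched, on both strands, were TTTGGCGC, TTTCCCGC, TTTGCCGC and TTTCGCGC. A match was present for 2.61% of all 27025 genes with a window, for 4.91% of the 10066 such genes at 1 TPM or more and for 6.59% of the 1320 such genes at 100 TPM or more. The gene backgrounds include the members themselves. The windows of 4 of the 6 Mcm2-7 genes and of Orc1, the member of lowest level, are shown because they carry matches at different places, with the matched letters in capitals and each window read 5′ to 3′ along its gene.
Mcm3 (chr1:20820263-20820562, minus strand): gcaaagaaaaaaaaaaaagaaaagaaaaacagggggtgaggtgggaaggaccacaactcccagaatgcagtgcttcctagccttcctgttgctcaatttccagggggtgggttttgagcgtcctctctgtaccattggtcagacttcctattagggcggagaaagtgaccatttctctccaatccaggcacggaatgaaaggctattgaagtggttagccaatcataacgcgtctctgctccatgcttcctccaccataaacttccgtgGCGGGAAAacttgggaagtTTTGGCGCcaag
Mcm5 (chr8:75109259-75109558, plus strand): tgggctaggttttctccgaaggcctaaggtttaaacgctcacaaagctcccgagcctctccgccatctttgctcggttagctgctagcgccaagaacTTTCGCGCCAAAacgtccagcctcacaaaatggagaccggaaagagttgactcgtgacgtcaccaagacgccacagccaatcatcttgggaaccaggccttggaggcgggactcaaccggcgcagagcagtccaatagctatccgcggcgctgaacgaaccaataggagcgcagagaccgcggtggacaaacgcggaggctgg
Mcm6 (chr1:128359656-128359955, minus strand): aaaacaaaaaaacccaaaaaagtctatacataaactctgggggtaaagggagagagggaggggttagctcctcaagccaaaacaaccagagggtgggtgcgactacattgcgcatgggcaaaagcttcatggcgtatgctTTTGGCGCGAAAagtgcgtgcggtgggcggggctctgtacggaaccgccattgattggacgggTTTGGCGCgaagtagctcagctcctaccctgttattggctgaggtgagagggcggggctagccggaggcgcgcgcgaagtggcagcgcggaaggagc
Mcm7 (chr5:138171834-138172133, minus strand): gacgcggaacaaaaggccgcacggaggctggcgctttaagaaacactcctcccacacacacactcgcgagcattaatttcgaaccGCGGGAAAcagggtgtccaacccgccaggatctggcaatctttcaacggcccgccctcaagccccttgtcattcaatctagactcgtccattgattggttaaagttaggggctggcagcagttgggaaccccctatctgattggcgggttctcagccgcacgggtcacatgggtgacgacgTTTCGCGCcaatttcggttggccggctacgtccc
Orc1 (chr4:108579204-108579503, plus strand): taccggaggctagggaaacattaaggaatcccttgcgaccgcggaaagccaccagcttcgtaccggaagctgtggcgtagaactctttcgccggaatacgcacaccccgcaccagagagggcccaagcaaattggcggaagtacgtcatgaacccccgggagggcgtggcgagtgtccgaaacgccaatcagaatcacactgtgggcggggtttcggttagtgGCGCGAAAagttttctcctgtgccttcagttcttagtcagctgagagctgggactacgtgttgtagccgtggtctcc
The Mcm5 window holds a pair of matches that overlap, on opposite strands, and these begin 153 and 149 bases upstream of the start. Mcm6 likewise has an overlapping pair at 110 and 106 bases upstream, and a separate match at 47 bases upstream. The matches of Mcm7 begin 165 bases upstream and 16 bases downstream of the start. Both Mcm3 matches lie downstream, at 19 and 38 bases, and the single Orc1 match lies 27 bases upstream. The other members with a match were Orc3, Cdc6, Cdt1, Gins3, Pola1, Pold1, Pold3, Pole2, Rfc3 and Lig1. Across members, a match did not sort the levels: the median of the mean TPM was 138.1 with a match and 134.9 without. Gins1, Gins2, Gins4, Gmnn, Mcm4, Pole, Prim2 and Rfc2 have no window in the table used here.

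Other short motifs were closer to the background. CCAAT was found for 24 of 39 members (61.5%), against 46.7% of genes at 100 TPM or more. The ETS letters CCGGAAGT were found for 9 members (23.1%) and 13.2% of those genes, the E-box CACGTG for 8 members (20.5%) and 13.6%, and the NRF1 letters GCGCATGC for 5 members (12.8%) and 7.58%. The CHR element, TTTGAA, often named in genes of late cell cycle phases, was found for 5 members (12.8%) and 15.2% of genes at 100 TPM or more. TATAAA was found for 3 members, Cdc45, Pold2 and Fen1 (7.69%), and 9.55% of those genes. All motifs were searched on both strands, and a match is a description of letters and not of binding.

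**Figure D1:**
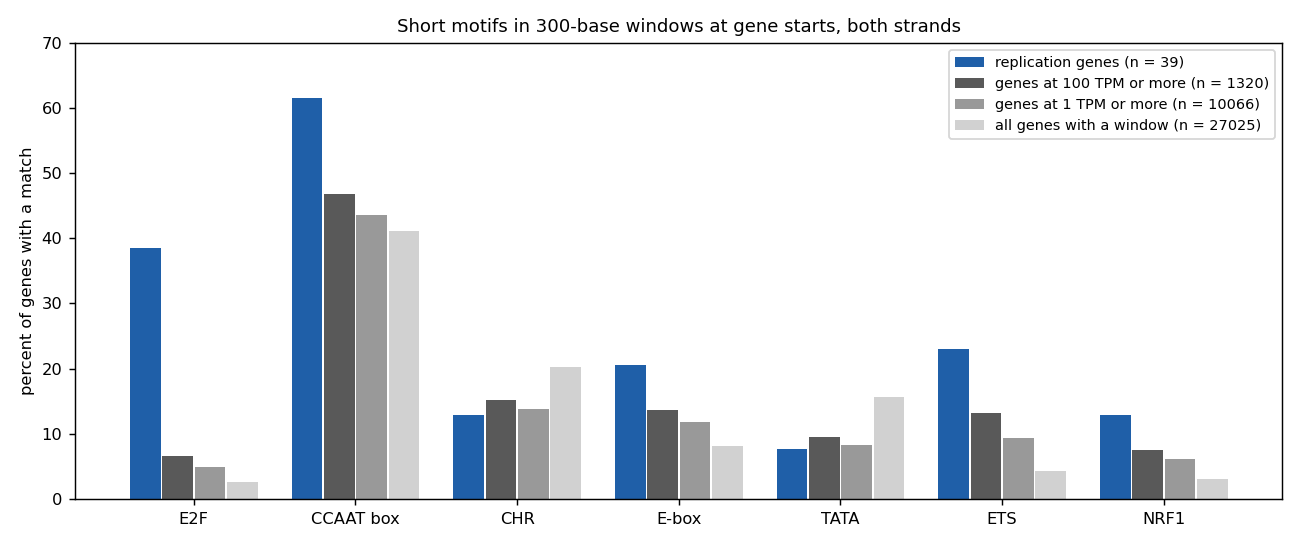
Percent of genes with a match to each motif within the window at the gene start, for the replication genes with a window (n = 39) and for genes at 100 TPM or more, at 1 TPM or more and all genes with a window. The E2F bar of the replication genes reaches 38.5% against 6.59% for genes at 100 TPM or more, while the CHR and TATA bars of the replication genes lie below those of that background.

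All 47 members were present at 1 TPM or more in both libraries, a level that 32.4% of annotated genes and 57.3% of 21474 protein-coding genes reached. At 100 TPM or more in both libraries stood 29 of the 47, against 7.68% of protein-coding genes. The median member stood at 131.3 TPM in replicate 1 and 134.6 TPM in replicate 2, while the median of all 14032 detected genes was 17.0 and 17.2 TPM. Together the members took 0.733% ± 0.0151 of all TPM (SD, n = 2). Of the 47, 26 lay above the 90th percentile of detected genes by mean TPM, and the lowest, Orc1, lay at percentile 56.7. Each member rested on 1297 to 39560 expected counts per library. These are levels in whole tissue, so fewer replicating cells and less RNA per cell cannot be told apart, and transcripts were measured, not proteins.

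**Figure D2:**
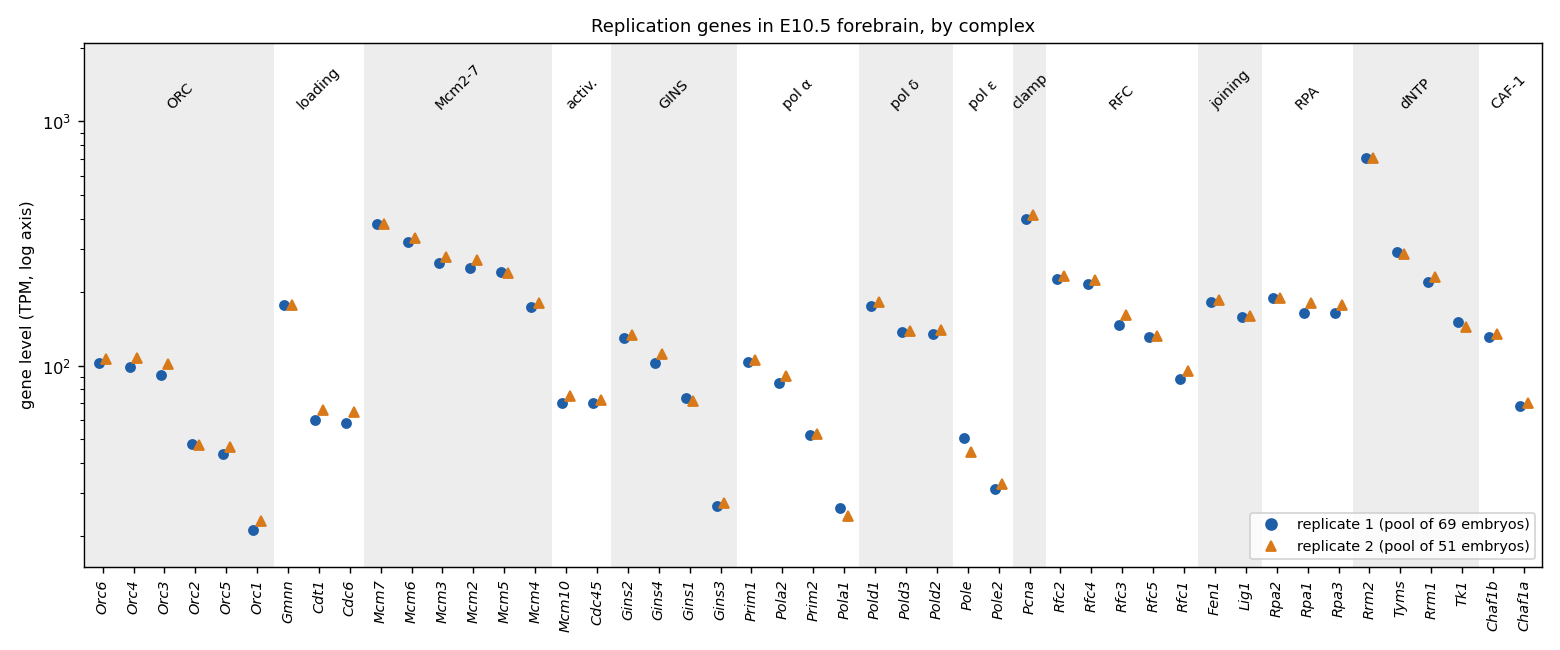
Level of each of the 47 genes in TPM on a log axis, grouped by complex and ordered by mean level within it, with a circle for replicate 1 and a triangle for replicate 2. Rrm2, Pcna and Mcm7 have the highest levels, and Orc1, Pola1, Gins3 and Pole2 the lowest.

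In the origin recognition complex, which binds origins and recruits the loaders, Orc1 was lowest and Orc3, Orc4 and Orc6 were highest by gene TPM. Orc1, the subunit whose level is known to be cell-cycle controlled, stood at 21.1 and 23.2 TPM in replicates 1 and 2. Orc5, an ATP-binding subunit of the core, stood at 43.5 and 46.5 TPM, and the core subunit Orc2 at 47.7 and 47.1 TPM. Those neighbours in the order did not differ beyond their spread. The core subunits Orc3 and Orc4 and the loosely bound Orc6 were higher: Orc3 had 91.5 and 101.4 TPM, Orc4 99.1 and 107.8 TPM, and Orc6 102.3 and 106.3 TPM. Orc6 and Orc4 could not be separated by gene TPM. However, 70.7% and 69.9% of the TPM of Orc4 lay in processed transcripts in replicates 1 and 2. Its coding transcripts had 29.0 and 32.5 TPM, as described below. For Orc3, processed transcripts held 33.6% and 36.8%. The highest and the lowest subunit differed 4.73-fold, a log2 difference of 2.24 ± 0.04 (SD, n = 2). That log2 spread was 1.56 without division by length and 2.40 with coding transcripts only.

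Among the licensing factors, the inhibitor was higher than both loaders in TPM. Geminin's gene Gmnn stood at 176.3 and 177.6 TPM in replicates 1 and 2. Cdt1 stood at 59.8 and 65.5 TPM and the ATPase gene Cdc6 at 58.0 and 64.6 TPM, so the loaders lay within 1.02-fold of each other. Gmnn exceeded Cdt1 by 2.82-fold in TPM (log2 1.498 ± 0.09) and Cdc6 by 2.89-fold (1.53 ± 0.10). Without division by transcript length, the log2 difference of Gmnn from Cdt1 was 0.23 ± 0.09 and that from Cdc6 turned to -0.22 ± 0.09. Cdt1 minus Cdc6 turned likewise, from a log2 difference of 0.03 in TPM to -0.44.

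The 6 genes of the Mcm2-7 ring, whose proteins join in equal numbers, were all at 100 TPM or more and lay within 2.14-fold of each other. Mcm7 led with 380.0 and 379.3 TPM in replicates 1 and 2, and Mcm6 followed with 319.7 and 332.7 TPM. Mcm3 had 263.5 and 278.0 TPM, Mcm2 251.9 and 269.5 TPM, and Mcm5 241.2 and 239.7 TPM. Mcm4 was the lowest with 174.2 and 180.1 TPM. The order was the same in both libraries. The median of the ring exceeded that of the origin recognition complex by 3.92-fold (log2 1.97 ± 0.02), that of GINS by 3.02-fold (1.59 ± 0.03) and that of the 9 replicative polymerase genes by 3.02-fold (1.59 ± 0.002). The difference from GINS was larger, 3.12 on the log2 scale, without division by length and 2.58 with coding transcripts only. Without division by length the log2 spread within the ring was 0.60, in place of 1.10, and the log2 difference from the origin recognition complex was 2.59. Within the Mcm family, Mcm7 lay 85.9-fold above Mcm9 (4.22 and 4.42 TPM), whose protein acts with Mcm8 in recombination and not in the ring. That log2 difference was 6.43, and 5.46 without division by length. Mcm8 itself stood at 29.0 and 30.7 TPM.

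The factors that switch the helicase on were lower than the ring. Mcm10, which is needed to start the assembled helicase, had 70.3 and 74.9 TPM in replicates 1 and 2, and Cdc45, a constant part of the active helicase, 70.2 and 72.4 TPM. Those levels did not differ beyond their spread. The 4 GINS genes, whose proteins form a tetramer with a single copy of each, were spread over 4.88-fold, a log2 spread of 2.29 that was 1.16 without division by length. Gins2 stood at 129.2 and 133.8 TPM, Gins4 at 102.0 and 111.8 TPM, Gins1 at 73.3 and 71.5 TPM and Gins3 at 26.5 and 27.2 TPM. Most of the TPM of Gins2 was assigned to a short transcript of retained-intron type. The coding transcript held 63.4% and 62.1% of the gene's reads in replicates 1 and 2, as described below.

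Among the polymerase genes of the 47, delta was the highest set and epsilon, with Pole and Pole2 only, the lowest. The catalytic subunit of delta, Pold1, had 176.0 and 182.6 TPM in replicates 1 and 2, and its accessory subunits Pold2 (134.3 and 139.9 TPM) and Pold3 (137.1 and 139.1 TPM) did not differ from each other beyond their spread. Pole, the catalytic subunit of epsilon, had 50.6 and 44.2 TPM, and Pole2, its second subunit, 31.3 and 32.6 TPM. The epsilon subunits outside the 47 were higher, Pole3 with 123.1 and 125.1 TPM and Pole4 with 78.3 and 85.1 TPM. Pold1 exceeded Pole by 3.78-fold (log2 1.92 ± 0.17). In the alpha complex the primase subunit Prim1 was highest with 103.7 and 105.0 TPM, followed by Pola2 with 85.2 and 90.7 TPM and the large primase subunit Prim2 with 52.0 and 52.4 TPM. Its catalytic subunit Pola1 was lowest with 26.0 and 24.3 TPM, and Pold1 exceeded Pola1 by 7.12-fold (2.83 ± 0.11). The 3 delta subunits among the 47 lay within 1.31-fold of each other, leaving out Pold4, which is described with the other genes of the pathway, while the 4 alpha subunits spanned 4.14-fold. Without division by length these log2 spreads were 1.12 for delta and 1.02 for alpha, in place of 0.39 and 2.051, and Pold1 exceeded Pole by 1.10 and Pola1 by 1.80 on the log2 scale.

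The clamp was more abundant than its loader. Pcna, whose product encircles DNA as a ring of identical subunits, stood at 397.7 and 412.2 TPM in replicates 1 and 2. It lay 2.64-fold above the median loader gene (log2 1.40 ± 0.05). The small loader subunits were Rfc2 with 225.2 and 232.5 TPM, Rfc4 with 216.4 and 223.7 TPM, Rfc3 with 146.6 and 160.3 TPM and Rfc5 with 131.3 and 132.6 TPM. Rfc1, the large subunit that makes the loader specific for replication, was lowest in TPM with 87.7 and 95.2. The median small subunit, which the alternative loaders share, exceeded Rfc1 by 2.01-fold (1.01 ± 0.02). Without division by length that log2 difference was 0.09 ± 0.07, and Rfc3 and Rfc4 had fewer reads than Rfc1. The log2 spread within the loader was 1.32 ± 0.05, and 0.86 without division by length. The Pcna pseudogene Pcna-ps2 was listed at 3.66 and 3.95 TPM and Pcna-ps1 at 0.

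The trimeric single-strand binding protein RPA, in which each subunit is present once, had subunit transcripts of nearly equal TPM. Rpa2 stood at 188.2 and 188.5 TPM in replicates 1 and 2, Rpa1 at 163.6 and 181.0 TPM and Rpa3 at 163.8 and 176.6 TPM. The range was 1.11-fold, a log2 spread of 0.15 ± 0.08, and Rpa1 and Rpa3 did not differ beyond their spread. The log2 spread was 0.58 with coding transcripts only and 1.93 without division by length. The flap endonuclease gene Fen1 had 182.1 and 185.6 TPM, and the ligase gene Lig1, which seals the nick that Fen1 leaves, had 157.7 and 159.5 TPM.

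The enzymes that supply deoxynucleotides included the most abundant member. Rrm2, the small subunit of ribonucleotide reductase, had 706.3 and 707.2 TPM in replicates 1 and 2, and its partner Rrm1, the large subunit, 219.8 and 229.9 TPM. Rrm2 exceeded Rrm1 by 3.14-fold in TPM (log2 1.65 ± 0.04), and by 0.70 ± 0.05 on the log2 scale when reads were not divided by length. Rrm2b, the small subunit that p53 induces and that quiescent cells use, had 6.75 and 5.09 TPM, 118.6-fold below Rrm2. That log2 difference was 6.89, and 6.32 without division by length. Thymidylate synthase, Tyms, had 291.5 and 285.8 TPM, and thymidine kinase, Tk1, had 151.4 and 143.5 TPM. Chromatin assembly factor 1 places histones behind the fork, and its subunit gene Chaf1b (130.7 and 134.6 TPM) exceeded Chaf1a (68.6 and 70.2 TPM) by 1.91-fold, a log2 difference of 0.93 that was 0.04 without division by length. Within all sets, 28 of 33 neighbouring pairs in the order of levels differed by more than the SD of that difference over the libraries. With n = 2 that SD is only a rough measure. The order was set from the same libraries, so the count does not test it. The share among other genes was not computed.

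**Figure D3:**
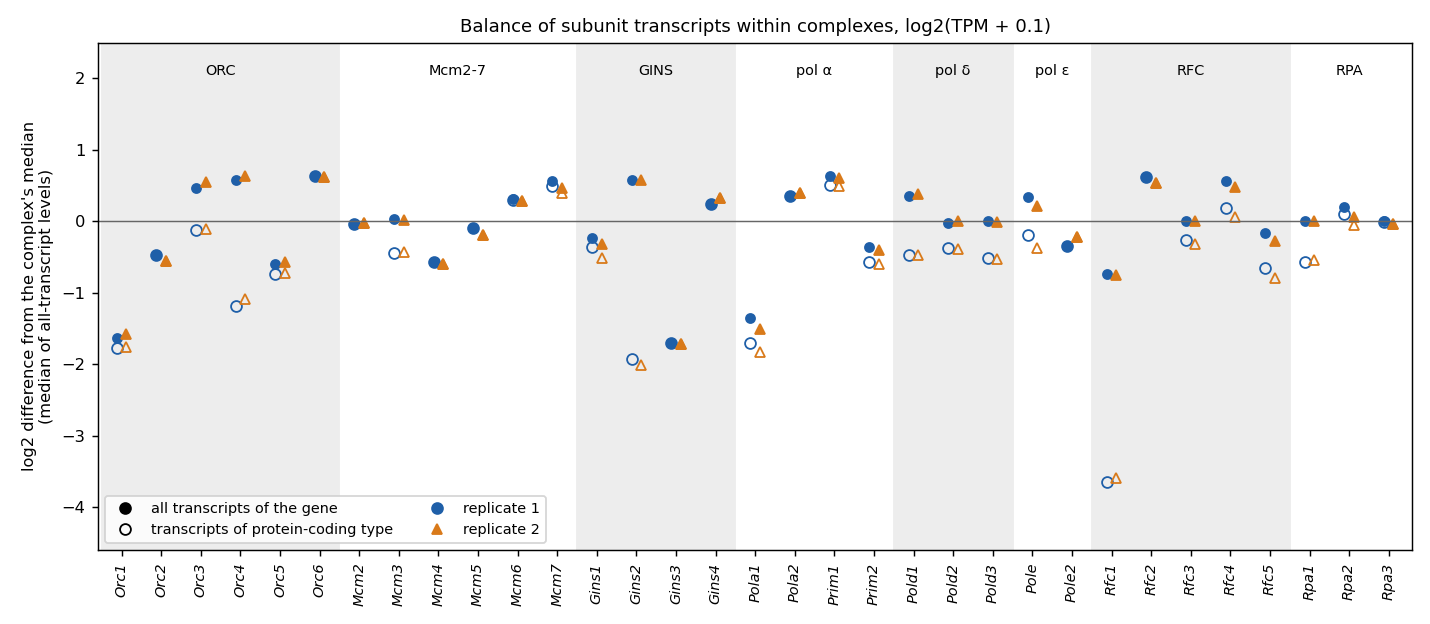
Log2 difference of each subunit from the median of its own complex, on the log2(TPM + 0.1) scale, with circles for replicate 1 and triangles for replicate 2. Filled symbols use all transcripts of the gene and open symbols only transcripts of protein-coding type: among the 8 complexes drawn, Orc4, Gins2 and Rfc1 drop furthest between the filled and the open symbol, and most Rfc1 transcripts carry no type in the annotation.

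Gene levels hid differences in which transcripts were counted. Of the 47 members, 37 have several annotated transcripts. In 11 of these (29.7%) the types that make no full protein, which are retained introns, processed transcripts and transcripts marked for nonsense-mediated decay, held over 25% of the TPM in both libraries. The same was true of 24.1% of 6181 protein-coding genes with several transcripts and at least 10 TPM, so the share among the members was near that of other genes. The 11 were Orc3, Orc4, Mcm3, Mcm10, Gins2, Pold1, Pole, Rfc5, Rpa1, Tyms and Tk1. The leading transcript differed between the libraries in 1 of the 37 members with several transcripts. The 10 members with a single transcript could not differ, and the share over other genes was not computed.

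Gins2 (chr8:120578633-120589304, minus strand, GRCm38) was led by a short transcript. The retained-intron transcript ENSMUST00000155609.1, of 511 bases, held 70.8% and 73.7% of the gene's TPM in replicates 1 and 2. The coding transcript ENSMUST00000034278.5, of 3900 bases, had 22.6 and 22.1 TPM. That is near the level of Gins3, but the same coding transcript held 63.4% and 62.1% of the gene's reads, because a short transcript gains more TPM per read. By GENCODE M21, 67.3% of Gins2 exon bases are also exon of Gse1 on the opposite strand (7.09 and 6.65 TPM). The deposited values used M4, and the sources used here do not say whether reads were counted by strand.

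Tyms (chr5:30058202-30073617, minus strand, GRCm38) was led by a transcript marked for nonsense-mediated decay, ENSMUST00000146520.3, with 121.3 and 120.7 TPM in replicates 1 and 2. Its coding TPM lay in a single transcript, ENSMUST00000026846.6, with 32.5 and 33.2 TPM, which is 11.2% and 11.6% of the gene's TPM and 27.4% and 27.6% of its reads. Tyms would stand below Tk1 by this measure, with a log2 difference of -1.25 in place of 0.97, since the coding transcripts of Tk1 had 80.1 and 76.8 TPM. In reads the coding transcripts were close. That of Tyms, of 3163 bases, had 2759 and 2534 reads in replicates 1 and 2, and that of Tk1, of 1440 bases, 2972 and 2569. For the loader subunit Rfc1, 86.7% of the TPM in replicate 1 was in transcripts without a type in the annotation, led by one of 485 bases with 36.5 and 37.7 TPM. Another without a type, of 4751 bases, had 23.5 and 22.6 TPM.

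Orc4 was the member whose leading transcript changed. ENSMUST00000128618.1, of 424 bases, held 20.2% and 19.9% of its TPM in replicates 1 and 2, and ENSMUST00000154784.3, of 1477 bases, held 19.2% and 20.7%. Both are processed transcripts, and the coding ones summed to 29.0 and 32.5 TPM. By coding transcripts Orc4 would stand between Orc1, with 19.2 and 20.3 TPM in them, and Orc5, with 39.6 and 41.8 TPM. In Rpa1 a retained-intron transcript of 716 bases held 32.0% and 30.6% of TPM, and in Mcm3 another of the same length 21.6% and 19.7%. The DNA polymerase genes Pold1 and Pole had 34.4% and 31.3% of their TPM in such types in replicate 1, and 32.9% and 33.7% in replicate 2. Fen1 was split over 3 coding transcripts, the first with 36.0% and 41.7%, and Lig1 was led by a coding transcript of 944 bases with 42.6% and 34.7%. Another coding transcript of Lig1, of 3091 bases, held 23.4% and 29.15%. Coding is a label of the annotation and does not show that a transcript spans the full protein. With coding transcripts alone, 22 members stood at 100 TPM or more in both libraries, in place of 29. The share of other genes at that level by coding transcripts was not computed.

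**Figure D4:**
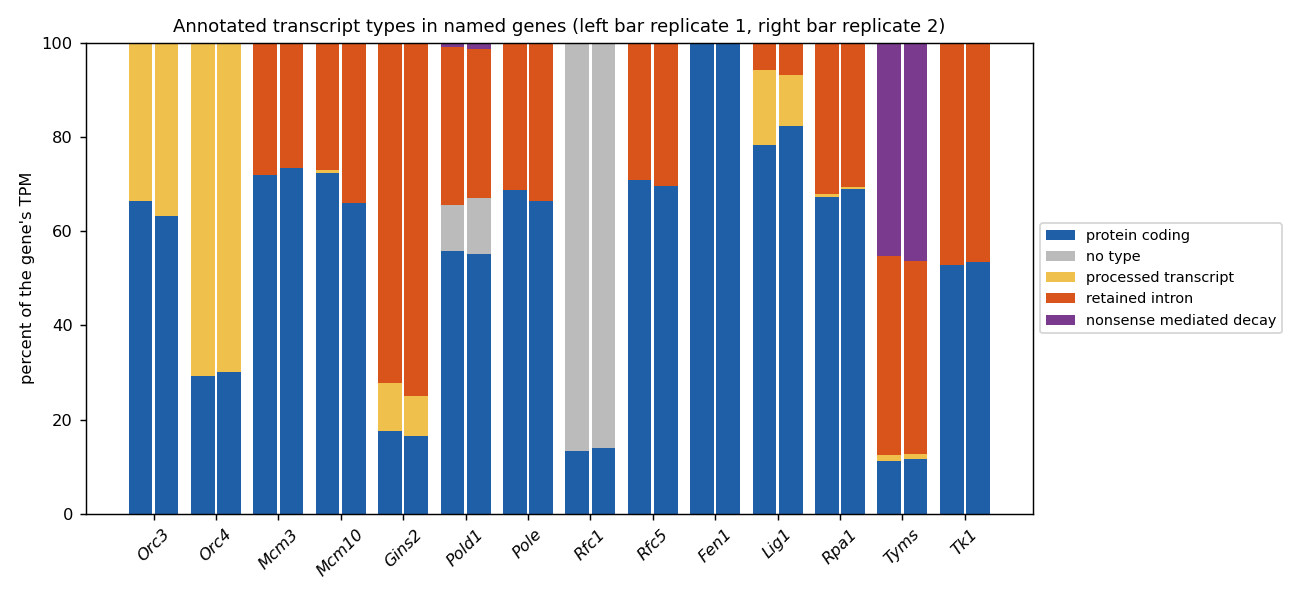
Percent of each gene's TPM in each annotated transcript type, for 14 members chosen by their transcript makeup, with the left bar of a pair for replicate 1 and the right bar for replicate 2. Tyms, Gins2 and Orc4 show the smallest protein-coding shares among genes whose transcripts have a type, and Rfc1 is mostly without a type.

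The other genes of the pathway were taken as 6 lists of 55 genes in all. All 55 were detected and 18 stood at 100 TPM or more in both libraries, with a median of 78.3 and 83.6 TPM in replicates 1 and 2. The fork protection gene Tipin (234.9 and 238.3 TPM) and the cyclin gene Ccne1 (98.9 in both) led the 14 genes of origin firing. Ticrr, which brings Cdc45 to origins, was lowest there with 10.1 and 9.69 TPM, and Recql4, a helicase gene needed for firing, had 15.46 and 14.95 TPM. In licensing control the ubiquitin ligase adaptor Ddb1 (355.9 and 358.9 TPM) and the F-box gene Skp2 (113.1 and 116.3 TPM), both tied to Cdt1 destruction, were highest. The lowest were Mcm9 and Mcm8, described above.

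Of the subunits left out of the 47, Rbbp4, the histone-binding chain of chromatin assembly factor 1, had 466.1 and 464.3 TPM in replicates 1 and 2, and Pole3 123.1 and 125.1 TPM. Pold4, the smallest delta subunit, which is known from human cells to be degraded in S phase, had 6.82 and 7.56 TPM, 18.98-fold below Pold3 (log2 4.25 ± 0.09). That log2 difference was 5.65 without division by length. The PCNA unloader Atad5 had 17.2 and 17.7 TPM. Among primer removal genes the RNase H2 gene Rnaseh2c (158.3 and 147.3 TPM) and the exonuclease gene Exo1 (139.7 and 145.5 TPM) had the highest means. Rnaseh2a (146.0 and 138.9 TPM) was level with Exo1, above it in replicate 1 and below it in replicate 2. Dna2, a nuclease for long flaps, had 34.3 and 35.3 TPM, and Rnaseh2b 65.9 and 56.4 TPM.

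In nucleotide supply the kinase gene Nme1 (305.0 and 290.3 TPM in replicates 1 and 2) and the dUTPase gene Dut (272.5 and 287.7 TPM) led. The lowest were Rrm2b and the mitochondrial kinase gene Tk2 (18.03 and 17.84 TPM), both known for supply outside S phase. The FACT subunit Ssrp1 (365.7 and 380.7 TPM) and the histone chaperone Nasp (299.3 and 321.4 TPM) led the replication-coupled chromatin genes. The lowest of that list were Asf1a (66.7 and 71.8 TPM) and Supt16, the FACT partner of Ssrp1 (87.0 and 92.8 TPM).

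The replication genes differed little between the pools. After scaling of the expected counts by TMM, which sets the libraries to a common level, 0 of 47 members differed between replicate 1 and replicate 2 by more than 0.32 on the log2 scale, the threshold used for all such counts here, against 10.7% of 13842 genes. The largest differences were those of Rpa1, 0.16 lower in replicate 1 on the log2 scale, and Pola1, 0.10 higher. The counting interval of the ratio excluded equality for 20 of 47 members, against 34.4% of genes. These shares are not matched for depth. The background goes down to a mean count of 50, where counting error is larger, and each member had 1297 or more counts. Of the 55 other genes of the pathway, 0 passed the threshold too. By any amount, 35 of 47 were lower in replicate 1, against 50.7% of genes, with a median log2 ratio of -0.03 (-0.002 over all genes). All 6 genes of the origin recognition complex were among the 35, while Gmnn, Mcm5, Mcm7, Rrm2 and Tk1 were among the 12 that were higher. The counting interval excluded equality for 2 of the 6, Orc3 and Orc4. Among the 12, it did so for Mcm7, Pola1, Pole and Tk1 only. Scaled by library size only, 31 of 47 members were lower in replicate 1, against 47.7% of genes.

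Markers of other cells differed between the pools alongside this. All 8 neuron markers were higher in replicate 1 than in replicate 2, 7 of 8 past the threshold, with summed levels of 427.6 and 333.4 TPM. All 8 erythroid markers were higher in replicate 1 too, 6 of 8 past the threshold, with sums of 17391 and 12881 TPM. Neuroepithelial markers had a median log2 ratio of 0.03, with Fabp7 alone of 8 past the threshold (194.2 and 119.8 TPM). By any amount 7 of these 8 were higher in replicate 1, and the counting interval excluded equality for 4. The log2 ratio was 0.11 for Nes, 0.08 for Hes5, 0.04 for Vim (768.4 and 762.4 TPM) and 0.001 for Sox2 (21.1 and 21.3 TPM). For mesenchyme 1 of 8 markers passed the threshold (summed 501.9 and 507.5 TPM), for endothelium 0 of 8 (193.8 and 202.3 TPM), for macrophages 1 of 8 (52.1 and 49.8 TPM) and for surface epithelium 0 of 7 (140.8 and 133.1 TPM). Ptprc and Krt5 were the markers under 1 TPM, and none was at 0. The part of these cells in the levels of the replication genes was not tested.

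**Figure D5:**
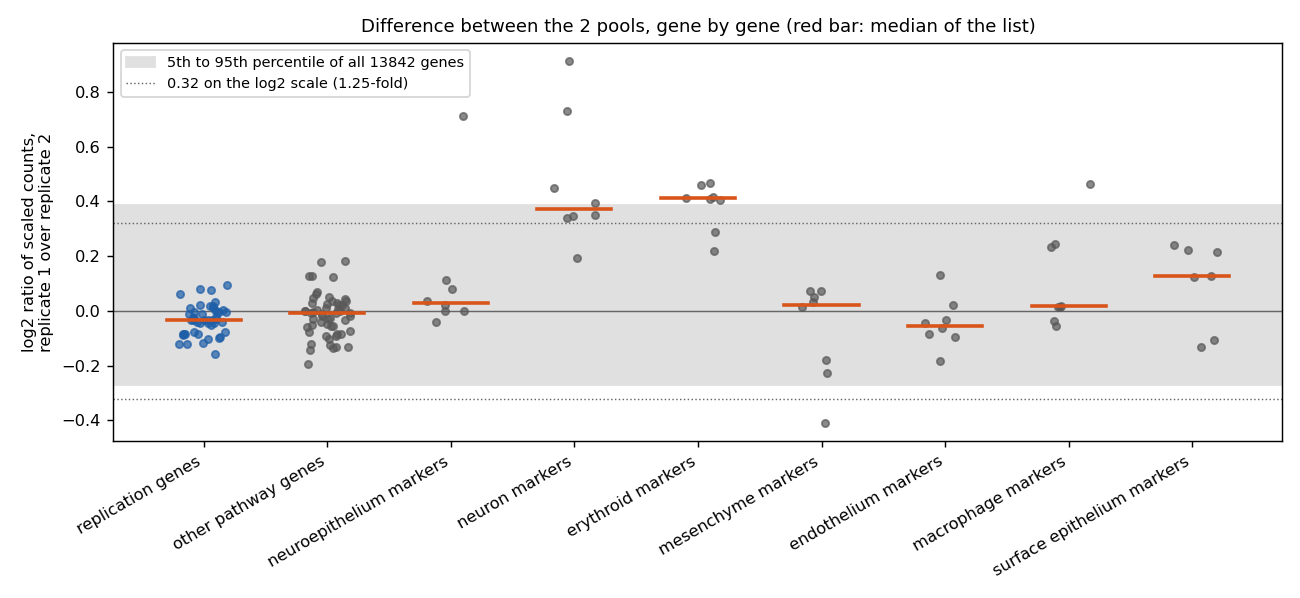
Log2 ratio of scaled counts in replicate 1 over replicate 2 for each gene with a mean count of 50 or more, by list, with the list median as a red bar, the threshold of 0.32 as dotted lines and the 5th to 95th percentile of all genes in grey. The replication genes lie between -0.16 and 0.10, while the medians of neuron and erythroid markers are 0.37 and 0.41.

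Reads shared with other genes may touch some of these values. The posterior SD of a member's count, which reflects reads that fit several genes, was at most 0.467% of the count. Exons here are those of GENCODE M21, while the deposited values used M4. The overlap shares therefore need not describe the bases on which reads were counted. Chaf1a has 8854 exon bases in M21, 4648 of them shared, but was quantified as 1 transcript of 3308 bases. By M21, some exon bases are also exon of another gene in 18 of 47 members. In 8 of them over 10% of exon bases lie opposite another gene. Besides Gins2 these were Fen1 (78.8% with the antisense gene Gm10143, at 9.44 and 10.6 TPM in replicates 1 and 2), Chaf1a (52.5% with Ubxn6, at 38.9 and 37.9 TPM), Orc2 (29.8% with Nif3l1, at 64.5 and 66.9 TPM), Rfc2, Rfc4, Rfc5 and Orc1. Some opposite genes were more abundant: Eif4a2 over 12.7% of Rfc4 had 143.9 and 149.4 TPM, and Tmem258 over 5.37% of Fen1 had 307.2 and 319.3 TPM. The share of all genes with such overlaps was not computed. Without strand in the counting, reads of such pairs cannot be told apart.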

How the data were processed

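Per the labels, RNA was extracted by the mirVana method with a size range above 200, spike-ins were added, and the labels also list a manual for low RNA input. The notes deposited by the authors name mm10 and annotation M4. The sources used here name no aligner, quantification tool or strand setting. The authors deposited expected counts (estimated reads, not normalized), TPM and posterior mean TPM (length-adjusted shares over all rows), and, for each transcript, its percent of the TPM of its gene.

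The gene tables held 43021202 and 39215064 expected counts in replicates 1 and 2, of which 404312 and 375325 lay in the 47 members. Symbols, transcript types and the coordinates of genes and exons came from GENCODE M21 on GRCm38, matched by identifier without version (42462 of 43346 identifiers). Of 231 transcripts of the members, 11 were not found there and have no type.

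Within a library, levels were compared as log2(TPM + 0.1), and differences are given as mean ± SD of the 2 libraries. Between the libraries, expected counts plus 0.5 were scaled by TMM (edgeR 4.0.16 in R 4.3.3) where the mean count was at least 50. Intervals are 95% exact binomial and cover counting error only. DESeq2 1.42.0 size factors, rounded counts for that step, other pseudocounts, posterior means, no length division and coding transcripts only were alternatives, for some pairs and spreads added after seeing the data. The ratio step was tested on simulated data. Python 3.11.15 with pandas 2.3.3, numpy 2.4.6 and matplotlib 3.10.9 did the rest.

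The members and all lists were chosen with earlier results of these data known. The motifs were chosen after the data were seen. Members were all open to naming. Of each other list the 2 highest and the 2 lowest genes were named, and transcripts were named where the lead differed, was not of coding type, or non-coding types held over 25%, and for the 3 lowest leading shares. Other genes named were chosen after their values were seen. The labels call the libraries biological replicates from separate pools, and spreads cover those pools only.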

Additional observations from a re-analysis of the deposited data

How the results depend on the processing

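Of 103 alternatives tried on 27 results, 48 moved a value by no more than the spread between the 2 libraries, or a count by less than 1.5 times, 52 moved it more and 3 turned its direction. Those 3, and the alternatives for other pairs and for spreads not listed here, were added after seeing the data. Part of the 48 could not have moved a value, and says nothing on stability. For a difference or spread, a single library always lies closer to the mean of the 2 libraries than their SD. The filters at 1 TPM and on counts removed no member. Without division by length, Gmnn minus Cdc6 turned from 1.53 to -0.22 and Cdt1 minus Cdc6 from 0.03 to -0.44. With coding transcripts only, Tyms minus Tk1 turned from 0.97 to -1.25 in TPM, although the reads of the coding transcripts were close, as given above. Log2 differences between sets are listed by setting. Without division by length, Mcm2-7 exceeded the origin recognition complex by 2.59, GINS by 3.12 and the polymerases by 2.23, Pcna exceeded the loader median by 1.32, Rrm2 exceeded Rrm1 by 0.70 and Gmnn exceeded Cdt1 by 0.23, and the spreads were 1.56 within the origin recognition complex, 0.60 within Mcm2-7 and 0.86 within the clamp loader. With coding transcripts only, the same differences of Mcm2-7 were 2.51, 2.58 and 1.51, Pcna stood 1.59 above the loader median and Rrm2 1.60 above Rrm1, and the spreads were 2.40, 1.03 and 4.19. The last rests on Rfc1, most of whose transcripts have no type: with these included, an alternative added after seeing the data, the loader spread was 1.35 and the Pcna difference 1.59. With means in place of medians, the Mcm2-7 differences were 2.15, 1.89 and 1.87. Posterior mean TPM gave 1.95 for Mcm2-7 over the origin recognition complex and 2.18 for the spread of that complex. A pseudocount of 1 gave 1.96 and 2.20 for these, and 1.58 for Mcm2-7 over the polymerases. Members at 100 TPM or more numbered 22 with coding transcripts only, 29 in replicate 1 alone and 31 in replicate 2 alone. The shares of other genes under these settings were not computed. A pair of pools cannot show how embryos vary, and counts of 1297 or more per member leave counting error small.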
